A study of Mus musculus with 8 samples.

Results

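The TNF superfamily is a set of cell-surface ligands and the receptors they bind. Here 9 of its genes were followed in bone marrow-derived macrophages (BMDM), out of 18183 genes that had a probe set of their own. The ligands were *Tnf*, *Tnfsf9*, *Tnfsf10*, *Tnfsf13b* and *Tnfsf14*, and the receptors were *Tnfrsf1a*, *Tnfrsf1b*, *Tnfrsf9* and *Fas*. A member was taken from probe sets annotated to it alone, 17 in all, and was described by its brightest one, that is the one with the highest mean over the 8 arrays. The others served as a check. All values are log2 intensities after RMA, the authors' normalisation, which gives 1 value per probe set and array. Levels of different probe sets depend on their probes and were not set against each other.

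BMDM of C57Bl/6 mice were compared in 4 groups of 2 arrays, from 4 donor animals. Frozen bone marrow was thawed and grown for 7 days in 15% medium conditioned by L929 cells. The miR-155-/-(LPS + IL-10) and miR-155-/-(LPS) arrays came from 2 male animals that lack miR-155, and the WT(LPS + IL-10) and WT(LPS) arrays from 2 female animals. Every culture received LPS (100 ng/ml, a bacterial cell wall component) for 24 h, and in the IL-10 groups IL-10 (20 ng/ml) was added 5 min before LPS, so that no group was left unstimulated. Differences between genotypes and between sexes cannot be told apart in these arrays, and neither can fewer cells of a type and less RNA per cell.

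Most TNF superfamily ligands are made as membrane proteins that act on neighbouring cells, and several are shed in soluble form. Their receptors recruit TRAF adaptors, which switch on NF-kappaB and MAP kinases, while receptors with a death domain, such as Fas and TNFR1, can also start apoptosis or necroptosis. In macrophages LPS induces several of the ligands, TNF above all, and IL-10 is a cytokine that restrains that response. miR-155 is a microRNA induced by LPS in macrophages. Its mature 5p strand in the RefSeq table (GRCm38.p6, chr16:84714143-84714165, plus strand) is shown because its absence defines the knockout, and the capitals mark the seed, bases 2 to 8.
mmu-miR-155-5p: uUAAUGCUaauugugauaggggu

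The arrays correlated with each other at r between 0.970 and 0.996, and their medians lay between 3.88 and 3.97. Of the probe sets tested, 58.9% had a mean below 5, and the table carries no detection calls, so that a fold change from such low values is uncertain. The host transcript *Mir155hg* of miR-155 read 4.02 or lower on every array and checks the knockout poorly. Markers of macrophages had a summed level between 15.77 and 15.96 on the log2 scale. Markers of fibroblasts and stroma summed to 14.17 and 14.14 in the WT(LPS + IL-10) and WT(LPS) arrays of WT donor 1, against 8.01 to 9.77 on the other 6 arrays, with 12 of 13 markers highest in that donor. Summed levels of neutrophil markers differed by genotype. They were 12.79 and 13.05 in miR-155-/- cells with LPS + IL-10, and 11.53 and 11.85 in miR-155-/- cells with LPS alone. In WT cells they were 13.84 and 13.83 with LPS + IL-10, and 13.49 and 13.46 with LPS alone. Single markers went both ways, and under LPS alone 3 of 11 were higher in the knockout and 8 lower. *Csf3r* was among the higher, with 8.59 and 8.53 in miR-155-/-(LPS) against 8.22 and 7.99 in WT(LPS). Of 11 such markers 5 were below 5 on all arrays. Markers of T and NK cells, 9 of 9, and of mast, basophil and erythroid cells, 7 of 7, were below 5 on all arrays, as were 6 of 8 dendritic cell and 5 of 7 B cell markers. The part of such cells in the members' values was not tested.

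The plot of all members on the 8 arrays shows the main pattern. *Tnf*, *Tnfsf10* and *Tnfsf13b* were highest in miR-155-/-(LPS) and were lowered there by IL-10, and *Tnfsf14* was raised by IL-10 in both genotypes. In the main fit the other 5 members passed no test at an adjusted p under 0.05 from limma. Such a pass is the meaning of "called" throughout. Of those 5, *Tnfrsf1b* and *Fas* passed only in some alternative fits.

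**Figure D1:**
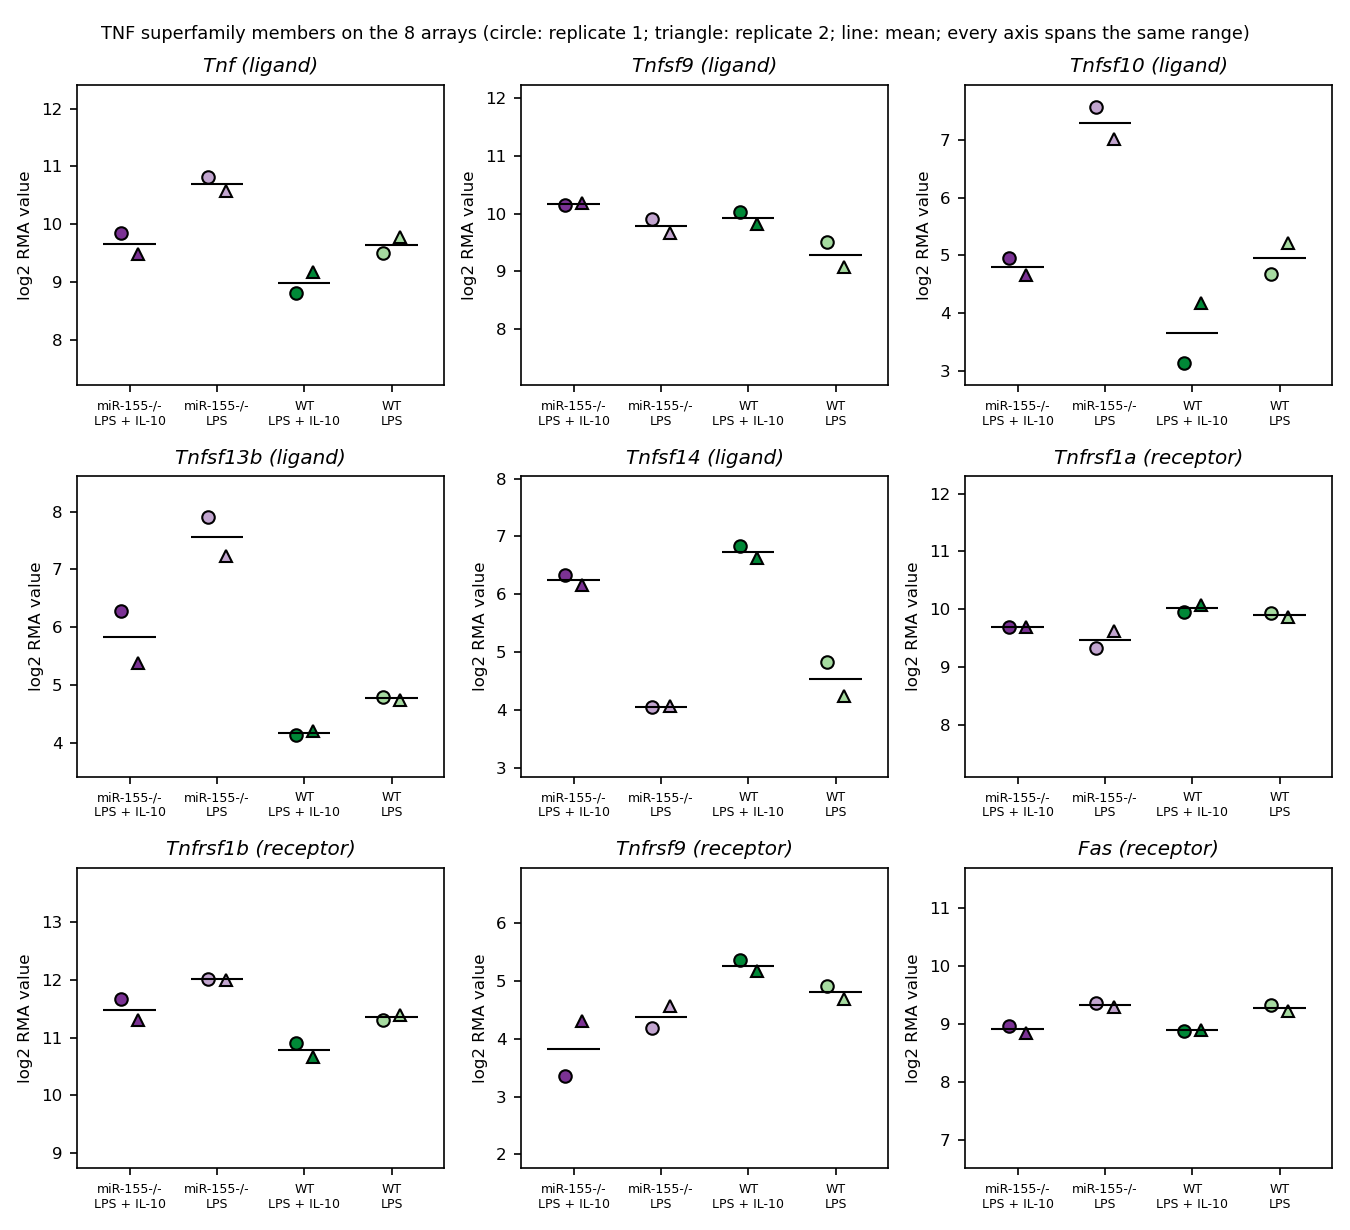
Log2 RMA value (y axis) of each member's brightest probe set in the 4 groups (x axis), with circles for replicate 1, triangles for replicate 2 and lines for means; every panel spans the same range. *Tnfsf10* and *Tnfsf13b* stand highest in miR-155-/-(LPS), with 7.57 and 7.02, and 7.90 and 7.23, while *Tnfsf14* separates the IL-10 groups from the LPS groups in both genotypes.

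*Tnf* encodes the founding ligand, a trimeric cytokine released by activated macrophages. It measured 9.84 and 9.49 in miR-155-/- cells with LPS + IL-10, 10.82 and 10.58 in miR-155-/- cells with LPS alone, 8.81 and 9.17 in WT cells with LPS + IL-10, and 9.51 and 9.78 in WT cells with LPS alone. Both miR-155-/-(LPS) arrays were above all others, and the miR-155-/-(LPS + IL-10) and WT(LPS) arrays overlapped. IL-10 lowered *Tnf* in the knockout by a log2 fold change of -1.04 ± 0.16 (SE), which is 2.06-fold lower (limma, adjusted p = 0.0267). With 1 array left out at a time the adjusted p reached 0.198, and the call held in 2 of 8 such fits. In WT the difference was -0.65 ± 0.16 (limma, adjusted p = 0.313), with the WT(LPS + IL-10) arrays below the WT(LPS) arrays. miR-155-/-(LPS) exceeded WT(LPS) by 1.06 ± 0.19, or 2.09-fold, just over the threshold (limma, adjusted p = 0.0517). It was called there with array weights and with an intensity trend and robust hyperparameters (limma, adjusted p = 0.0409 and 0.00609). It was called in 0 of 8 fits with 1 array left out, up to an adjusted p of 0.284, and was 0.93 without WT donor 1, whose stromal markers stood apart (limma, adjusted p = 0.17).

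The window around the start of *Tnf* held a TATAAA, shown in capitals 29 to 24 bases before the start (GRCm38.p6, chr17:35201958-35202257, minus strand), a motif in 13.6% of all 32851 windows of this length. Such windows, from RefSeq, run from 250 bases before to 50 bases after a gene's start, and 8 of the 9 members had 1 or more, 10 in all. They are printed for the 4 members called in any comparison of the main fit.
Tnf: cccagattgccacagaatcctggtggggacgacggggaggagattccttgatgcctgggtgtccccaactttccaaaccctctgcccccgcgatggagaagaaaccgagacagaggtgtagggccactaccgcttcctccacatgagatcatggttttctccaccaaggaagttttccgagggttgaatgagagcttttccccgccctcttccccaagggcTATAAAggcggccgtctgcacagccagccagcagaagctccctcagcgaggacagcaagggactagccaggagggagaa

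*Tnfsf10* encodes TRAIL, a ligand that triggers apoptosis through death receptors and is induced by interferons. Its brightest probe set read 4.95 and 4.66 in miR-155-/- cells with LPS + IL-10, 7.57 and 7.02 in miR-155-/- cells with LPS alone, 3.14 and 4.17 in WT cells with LPS + IL-10, and 4.68 and 5.22 in WT cells with LPS alone. The miR-155-/-(LPS) arrays were the only ones above 5.22, and in both genotypes the IL-10 arrays were below the LPS arrays. *Tnfsf10* was 5.09-fold higher in miR-155-/-(LPS) cells than in those of WT(LPS), with a log2 fold change of 2.35 ± 0.34 (limma, adjusted p = 0.0292). Within the knockout IL-10 lowered it by -2.49 ± 0.30, which is 5.63-fold (limma, adjusted p = 0.0104). In WT the difference was -1.29 ± 0.30 (limma, adjusted p = 0.264), and all 4 WT arrays read 5.22 or lower, which is low signal. The adjusted p of the genotype difference reached 0.199 with 1 array left out, and the call held in 2 of 8 fits. For the IL-10 difference in the knockout it reached 0.106, and the call held in 4 of 8.

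A second probe set of *Tnfsf10* gave 2.66 (limma, adjusted p = 0.0472) in miR-155-/-(LPS) against WT(LPS) and -2.44 (limma, adjusted p = 0.0302) for IL-10 in the knockout. The dimmest gave 1.54 and -1.49, with an adjusted p of 0.0968 and 0.0555 from limma. All 3 therefore had the same direction in both comparisons. The promoter window of *Tnfsf10* (GRCm38.p6, chr3:27316827-27317126, plus strand) is printed for comparison with that of *Tnfsf13b*. It held none of the 5 motifs searched on both strands, which were the TATA box (TATAAA), the interferon-stimulated response element core, the STAT palindrome (TTCNNNGAA), the AP-1 core (TGANTCA) and the kappaB consensus.
Tnfsf10: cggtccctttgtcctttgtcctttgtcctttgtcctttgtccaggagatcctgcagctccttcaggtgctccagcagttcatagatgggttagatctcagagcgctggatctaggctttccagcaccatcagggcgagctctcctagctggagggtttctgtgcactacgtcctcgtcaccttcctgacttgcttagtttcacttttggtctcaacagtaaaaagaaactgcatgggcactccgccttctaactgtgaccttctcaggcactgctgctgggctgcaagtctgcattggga

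*Tnfsf13b* encodes BAFF, the survival factor for B cells that myeloid cells supply. Its values were 6.28 and 5.39 in miR-155-/- cells with LPS + IL-10, 7.90 and 7.23 in miR-155-/- cells with LPS alone, 4.13 and 4.21 in WT cells with LPS + IL-10, and 4.80 and 4.75 in WT cells with LPS alone. All 4 knockout arrays were above all 4 WT arrays, and no 2 groups overlapped. With a log2 fold change of 2.79 ± 0.29, *Tnfsf13b* had the largest difference of the 9 members between the genotypes under LPS, 6.91-fold (limma, adjusted p = 0.0109). IL-10 lowered it in the knockout by -1.73 ± 0.26, or 3.32-fold (limma, adjusted p = 0.0209). In WT the difference was -0.61 ± 0.26 (limma, adjusted p = 0.537), and in the presence of IL-10 the knockout stood 1.67 ± 0.29 above WT (limma, adjusted p = 0.151). All 4 WT arrays read 4.80 or lower, which is low signal. With 1 array left out the genotype call held in 4 of 8 fits, up to an adjusted p of 0.101, and the IL-10 call in the knockout in 1 of 8, up to 0.168.

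The other 2 probe sets of *Tnfsf13b* did not follow. They read between 1.76 and 2.57 on all 8 arrays, which is at the bottom of the scale, and differed by 0.28 and 0.35 between miR-155-/-(LPS) and WT(LPS) (limma, adjusted p = 0.555 and 0.610). With the mean over the 3 probe sets the genotype difference was 1.14 and that for IL-10 in the knockout -0.68, and neither was called (limma, adjusted p = 0.0601 and 0.121). The calls thus rest on 1 probe set, the only one of this gene with signal. The more downstream of its 2 windows (GRCm38.p6, chr8:10006383-10006682, plus strand) held a TGANTCA, the AP-1 core, and the core of the interferon-stimulated response element (GAAA, any 2 bases, GAAA), both in capitals. The interferon element lay 16 to 7 bases before the start and occurs in 3.44% of all windows, and the AP-1 core occurs in 7.81%. Members not called in the main fit held them too, *Tnfrsf1b* the interferon core, and *Fas* and *Tnfrsf9* the AP-1 core.
Tnfsf13b: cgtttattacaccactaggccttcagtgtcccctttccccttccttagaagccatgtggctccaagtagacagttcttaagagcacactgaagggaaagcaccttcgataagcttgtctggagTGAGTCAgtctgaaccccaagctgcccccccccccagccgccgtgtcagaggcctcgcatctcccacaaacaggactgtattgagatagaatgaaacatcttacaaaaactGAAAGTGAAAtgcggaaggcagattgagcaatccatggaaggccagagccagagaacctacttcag

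*Tnfsf14* encodes LIGHT, a ligand of HVEM and of the lymphotoxin beta receptor. It was the only member called higher with IL-10, with 6.33 and 6.16 in miR-155-/-(LPS + IL-10) against 4.05 and 4.07 in miR-155-/-(LPS). In WT(LPS + IL-10) it read 6.84 and 6.63, against 4.83 and 4.25 in WT(LPS). All 4 IL-10 arrays were above 6 and all 4 LPS arrays were below 5. In the knockout the log2 fold change was 2.18 ± 0.18, 4.55-fold (limma, adjusted p = 0.00301), and the call held in all 8 fits with 1 array left out, up to an adjusted p of 0.0470. In WT it was 2.20 ± 0.18, 4.59-fold (limma, adjusted p = 0.0327), the sixth smallest p of all probe sets, yet this call held in 0 of 8 such fits (adjusted p 0.0532 to 0.261). It was also lost without the donor block and with array weights (limma, adjusted p = 0.123 and 0.0687). The difference between these effects was -0.013 (95% confidence interval -0.60 to 0.57, limma, adjusted p = 0.992) for this probe set, and that of the dimmer one was -0.68 (-1.33 to -0.019, limma, adjusted p = 0.472).

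Between genotypes *Tnfsf14* differed by -0.48 ± 0.20 under LPS (limma, adjusted p = 0.361) and by -0.49 ± 0.20 under LPS + IL-10 (limma, adjusted p = 0.546). Its dimmer probe set, on the same transcript, differed by 0.33 for IL-10 in the knockout (limma, adjusted p = 0.458) and by 1.01 in WT (limma, adjusted p = 0.182), and was called in neither. The promoter window of *Tnfsf14* (GRCm38.p6, chr17:57194132-57194431, minus strand) held 1 of the motifs, a TGANTCA 160 to 154 bases before the start, in capitals.
Tnfsf14: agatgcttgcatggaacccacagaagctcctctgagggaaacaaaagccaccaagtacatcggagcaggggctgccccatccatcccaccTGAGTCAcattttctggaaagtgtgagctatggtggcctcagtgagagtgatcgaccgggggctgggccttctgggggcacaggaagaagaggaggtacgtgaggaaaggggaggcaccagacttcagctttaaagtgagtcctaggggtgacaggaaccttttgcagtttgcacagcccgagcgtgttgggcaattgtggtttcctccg

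*Tnfsf9* encodes 4-1BBL, a costimulatory ligand of T cells. It measured 10.14 and 10.19 in miR-155-/- cells with LPS + IL-10, 9.91 and 9.67 in miR-155-/- cells with LPS alone, 10.03 and 9.81 in WT cells with LPS + IL-10, and 9.51 and 9.07 in WT cells with LPS alone. The WT(LPS) arrays were the lowest and the miR-155-/-(LPS + IL-10) arrays the highest, over a range of 1.12. The log2 fold changes were 0.37 for IL-10 in the knockout, 0.63 for IL-10 in WT and 0.50 for miR-155-/-(LPS) against WT(LPS), and limma gave adjusted p-values of 0.285, 0.306 and 0.277.

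**Figure D2:**
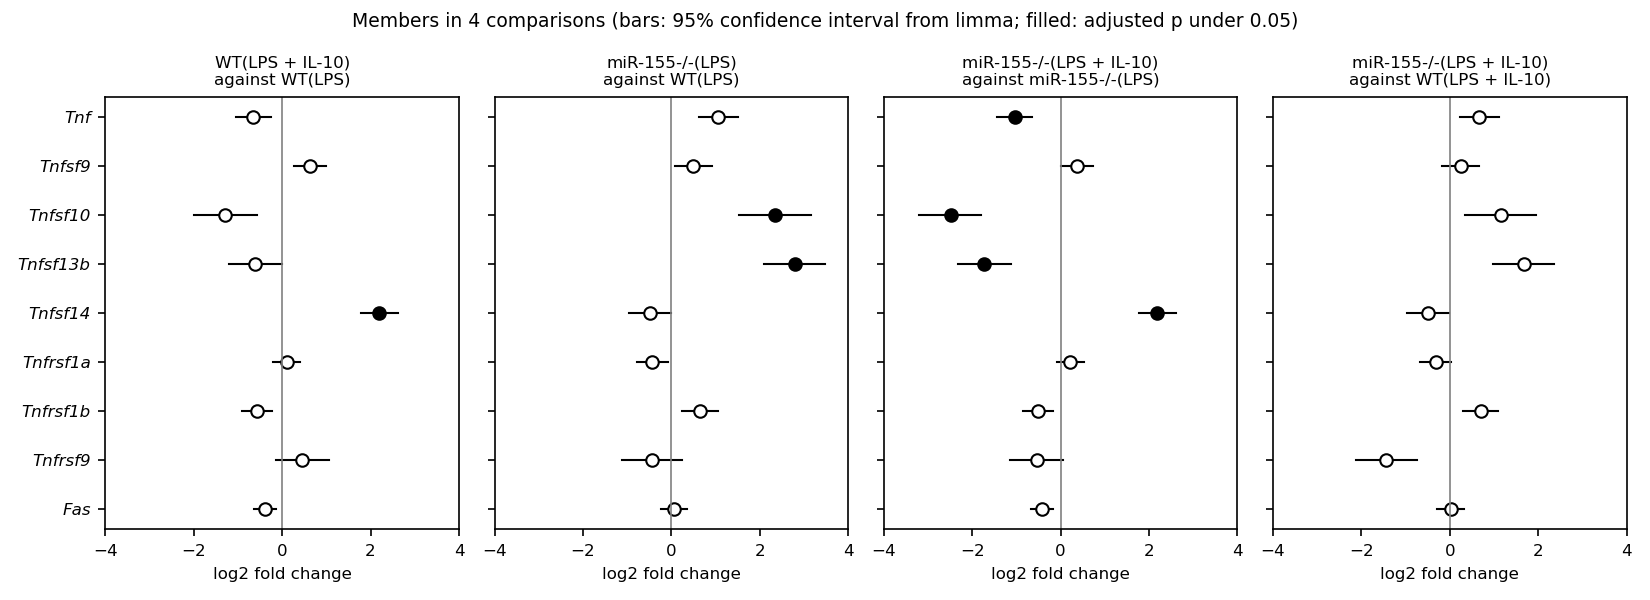
Log2 fold change (x axis) of each member (y axis) in 4 comparisons, 1 panel each, with 95% confidence intervals from limma as bars and filled points where the adjusted p was under 0.05. The filled points are *Tnfsf14* for IL-10 in WT, *Tnfsf10* and *Tnfsf13b* for miR-155-/-(LPS) against WT(LPS), and *Tnf*, *Tnfsf10*, *Tnfsf13b* and *Tnfsf14* for IL-10 in the knockout.

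Of the receptors, *Tnfrsf1b* encodes TNFR2, which binds membrane-bound TNF and has no death domain. It measured 11.66 and 11.31 in miR-155-/- cells with LPS + IL-10, 12.02 and 11.99 in miR-155-/- cells with LPS alone, 10.91 and 10.66 in WT cells with LPS + IL-10, and 11.31 and 11.39 in WT cells with LPS alone. Its order of groups was that of *Tnf*, with miR-155-/-(LPS) highest and WT(LPS + IL-10) lowest. The log2 fold changes were smaller, at 0.65 ± 0.17 for miR-155-/-(LPS) against WT(LPS) (limma, adjusted p = 0.141), -0.52 ± 0.15 for IL-10 in the knockout (limma, adjusted p = 0.130) and -0.56 ± 0.15 for IL-10 in WT (limma, adjusted p = 0.317). A second, dimmer probe set gave 1.48 in the first of these (limma, adjusted p = 0.0661), with values of 7.50 and 6.89 in miR-155-/-(LPS) against 5.91 and 5.53 in WT(LPS). *Tnfrsf1b* was called in the first 2 of these comparisons with an intensity trend and robust hyperparameters (limma, adjusted p = 0.0238 and 0.0276).

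*Tnfrsf1a* encodes TNFR1, the receptor of soluble TNF with a death domain. Its values were 9.70 and 9.69 in miR-155-/- cells with LPS + IL-10, 9.33 and 9.62 in miR-155-/- cells with LPS alone, 9.95 and 10.08 in WT cells with LPS + IL-10, and 9.94 and 9.87 in WT cells with LPS alone. The 4 knockout arrays were below the 4 WT arrays, by a log2 fold change of -0.43 ± 0.15 under LPS (limma, adjusted p = 0.255) and -0.32 ± 0.15 under LPS + IL-10 (limma, adjusted p = 0.592). For IL-10 the differences were 0.22 in the knockout and 0.11 in WT (limma, adjusted p = 0.441 and 0.823).

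*Fas* encodes the death receptor of FasL. Its arrays spanned 0.53, the smallest range of the members, with 8.97 and 8.84 in miR-155-/- cells with LPS + IL-10, 9.37 and 9.29 in miR-155-/- cells with LPS alone, 8.88 and 8.90 in WT cells with LPS + IL-10, and 9.32 and 9.22 in WT cells with LPS alone. All 4 IL-10 arrays were below all 4 LPS arrays, and the genotypes overlapped under either treatment. The differences for IL-10 were -0.43 ± 0.11 in the knockout (limma, adjusted p = 0.101) and -0.38 ± 0.11 in WT (limma, adjusted p = 0.368). *Fas* was called in the knockout with an intensity trend (limma, adjusted p = 0.0406).

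*Tnfrsf9* encodes 4-1BB, the receptor of *Tnfsf9* and best known on activated T cells. Its signal was low, at 3.36 and 4.30 in miR-155-/- cells with LPS + IL-10, 4.18 and 4.56 in miR-155-/- cells with LPS alone, 5.36 and 5.17 in WT cells with LPS + IL-10, and 4.92 and 4.68 in WT cells with LPS alone. In this brightest probe set the knockout arrays were below the WT arrays. With IL-10 present the difference was -1.44 ± 0.29, or 2.70-fold lower in the knockout (limma, adjusted p = 0.208), and its other 2 probe sets gave -0.059 and 0.012 there (limma, adjusted p = 0.941 and 0.988). Those lay between 1.93 and 3.96 on all arrays.

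The probe sets of the 5 members with several are set side by side in a plot. Dimmer ones often gave smaller differences, but not always. For miR-155-/-(LPS) against WT(LPS), a dimmer one gave 2.66 against 2.35 for *Tnfsf10* and 1.48 against 0.65 for *Tnfrsf1b*. For *Tnfrsf9* a dimmer one gave 0.39 against -0.43, the opposite sign, and neither was called.

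**Figure D3:**
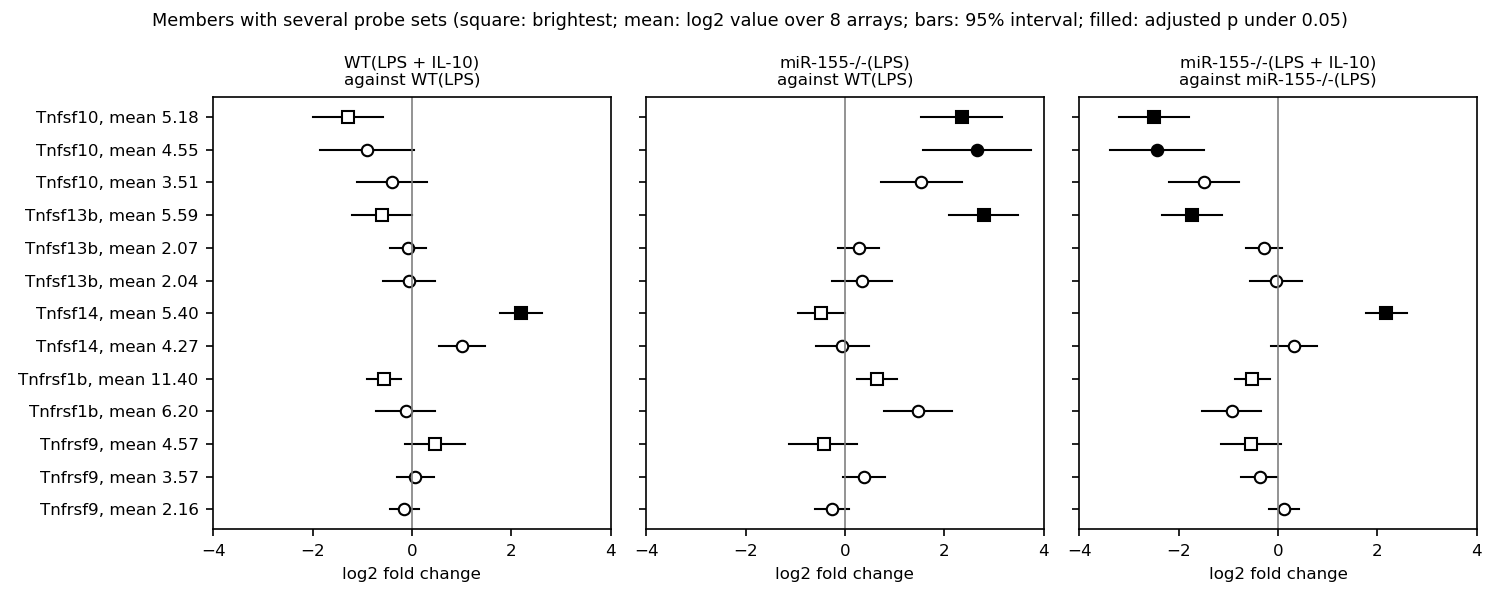
Log2 fold change (x axis) for each probe set of the members that had more than 1 (y axis, with its mean log2 value over 8 arrays), in 3 comparisons, with 95% confidence intervals; squares are the brightest probe sets and filled symbols those with an adjusted p under 0.05. All 3 *Tnfsf10* probe sets point the same way in the middle and right panels, while the dim *Tnfsf13b* probe sets, with means of 2.07 and 2.04, stay near 0.

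Counted over the members, 1 of 9 was called for IL-10 in WT, against 0.0311% of all probe sets tested. By a second rule that the study used, an unadjusted p under 0.05 with a log2 fold change over 1 in size, 2 were selected, *Tnfsf14* and *Tnfsf10*, against 0.689%. The arrays of the groups did not overlap for 9 of 9 members, against 32.8% of all probe sets. The members' median was -0.38 and that of all probe sets 0. These shares cover every probe set, while a member is counted by 1 probe set. By the brightest probe set of each of 18183 genes, 2 genes were called higher and 6 lower. Without the 2 arrays of WT donor 1, whose stromal markers stood apart, *Tnfsf14* gave 2.38 and was no longer called (limma, adjusted p = 0.0629), and 0 members were.

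For miR-155-/-(LPS) against WT(LPS), 2 of 9 members were called, *Tnfsf10* and *Tnfsf13b*, against 1.46% of all probe sets, and 3 were selected, with *Tnf* added, against 2.52%. The arrays did not overlap for 8 of 9, against 46.5%, and the medians were 0.50 for the members and 0.020 for all probe sets. By the brightest probe set of each of 18183 genes, 236 genes were called higher and 117 lower, and 367 were selected higher and 224 lower. In the same comparison 4 of 11 neutrophil markers were called lower and 0 higher, led by *S100a9* at -3.12 and *Mmp9* at -3.06. By sign 3 of the 11 were higher and 8 lower, and the part of neutrophils in the members' values was not tested. Without WT donor 1, *Tnfsf10* was higher by 2.08 (limma, adjusted p = 0.0492) and *Tnfsf13b* by 2.81, which was no longer called (limma, adjusted p = 0.0729). With only the 4 arrays compared in the fit, 0 members were called, at 0.0877 and 0.0577.

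For IL-10 in the knockout, 4 of 9 were called, 3 lower and 1 higher, against 2.68% of all probe sets, and the same 4 were selected, against 2.51%. The arrays did not overlap for 8 of 9, against 47.9%, and the medians were -0.52 and 0.0056. By the brightest probe set of each of 18183 genes, 286 genes were called higher and 350 lower, and 259 were selected higher and 347 lower. In this comparison 3 of 11 neutrophil markers were selected higher, of which *S100a8* (1.59) and *Csf3r* (1.09) were called. By sign 4 of the 11 were higher and 7 lower, with a median of -0.052. The 4 members were also called without WT donor 1, while without the donor block *Tnf* and *Tnfsf13b* were not (limma, adjusted p = 0.0779 and 0.0712).

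For miR-155-/-(LPS + IL-10) against WT(LPS + IL-10), limma called 0 of 9, against 0.0711% of all probe sets, and 6 had an unadjusted p under 0.05, against 8.94%. Selected were 3, *Tnfsf10* (1.15), *Tnfsf13b* (1.67) and *Tnfrsf9* (-1.44), against 1.22%, and 8 of 9 did not overlap, against 38.9%. *Tnfsf10* was 0.68 without WT(LPS + IL-10) replicate 1 and 0.63 without WT donor 1, below the 2-fold limit. In the same comparison 2 of 11 neutrophil markers were called lower, *S100a9* (-4.44) and *Mmp9* (-3.30), and by sign 4 were higher and 7 lower. With an intensity trend and robust hyperparameters *Tnfsf13b* and *Tnfrsf1b* were called (limma, adjusted p = 0.0317 and 0.0491).

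Whether IL-10 acted differently in the genotypes was tested as the difference of its effects. By limma 0 of 9 members were called, against 0.0333% of all probe sets, and 3 had an unadjusted p under 0.05, against 10.4%. The same 3 were selected, against 1.76%. They were *Tnfsf10* with -1.20 (95% confidence interval -2.20 to -0.20, limma, adjusted p = 0.432), *Tnfsf13b* with -1.12 (-1.98 to -0.27, limma, adjusted p = 0.406) and *Tnfrsf9* with -1.0 (-1.85 to -0.16, limma, adjusted p = 0.435). The dimmer probe sets gave -1.54 and -1.09 for *Tnfsf10*, -0.21 and 0.018 for *Tnfsf13b*, and -0.45 and 0.27 for *Tnfrsf9*.

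Within donors, IL-10 minus LPS for *Tnfsf10* was -2.62 and -2.36 in the knockout donors and -1.54 and -1.04 in the WT donors. For *Tnfsf13b* it was -1.62 and -1.84 in the knockout donors and -0.67 and -0.55 in the WT donors. For *Tnf* it was -0.99 and -1.09 in the knockout donors and -0.70 and -0.60 in the WT donors. In each case the difference was larger in both knockout donors than in both WT donors, and the sign was the same in all 4 donors. The difference of the IL-10 effects was nevertheless called for none of these genes. For *Tnf* it was -0.39 and was not selected either (limma, unadjusted p = 0.139, adjusted p = 0.595). *Tnfsf14* rose in all 4, by 2.28 and 2.09 in the knockout donors and by 2.01 and 2.38 in the WT donors, which overlap.

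**Figure D4:**
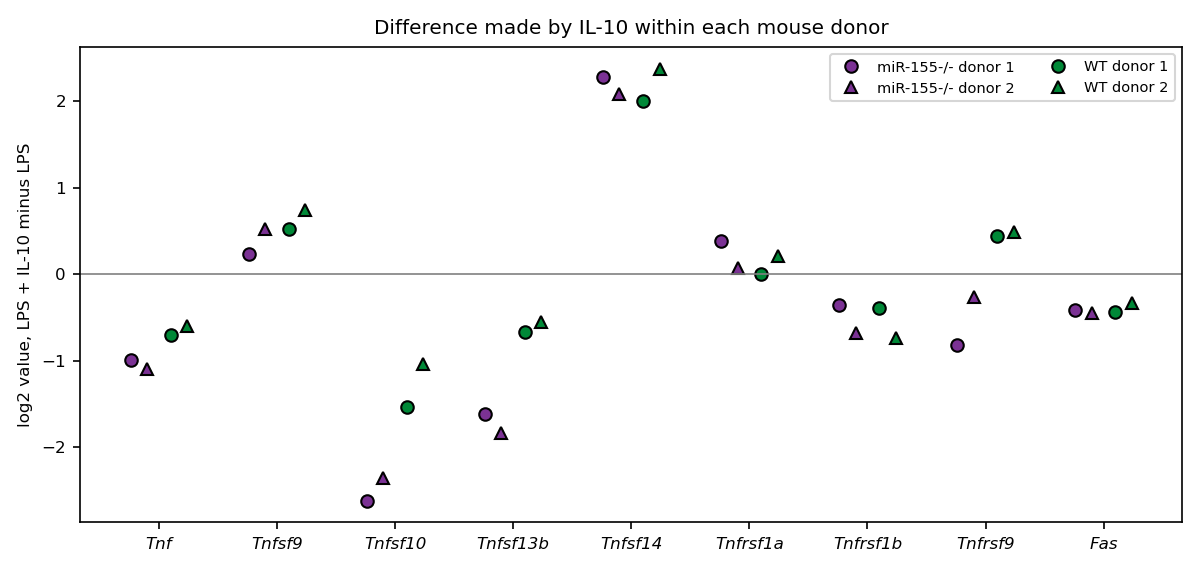
Log2 value in LPS + IL-10 minus that in LPS (y axis) for each member (x axis), within each of the 4 donors; purple symbols are miR-155-/- and green symbols WT donors. *Tnfsf14* lies between 2.01 and 2.38 in all donors, *Tnfsf10* is lower in the knockout donors, and *Tnfrsf9* is below 0 in the knockout donors and above 0 in the WT donors.

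Across the 8 arrays, *Tnf* and *Tnfsf10* had r = 0.99, *Tnf* and *Tnfsf13b* r = 0.94, and *Tnf* and *Tnfrsf1b* r = 0.93, while *Tnfsf14* and *Fas* had r = -0.94. These arrays share donors and groups, so that the values are a description of 8 points in 4 groups. Among genes with a mean of at least 6, the patterns most like *Tnfsf10* were those of *Uba7* (r = 0.999), *Ddx58* (r = 0.996) and *Naip6* (r = 0.994). Those most like *Tnf* were *Uba7* (r = 0.997), *Oas1b* (r = 0.996) and *Lmo4* (r = 0.995). For *Tnfsf13b* they were *Psmb10* (r = 0.994), *Psmb9* (r = 0.992) and *Irf1* (r = 0.992), and for *Tnfsf14* *Chst11* (r = 0.983), *Gnpda2* (r = 0.974) and *Il4ra* (r = 0.973).

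Other genes of the pathway were counted from lists of further ligands, receptors, adaptors, death proteins and sheddases. Of the other TNF superfamily ligands, 9 of 13 had a probe set of their own and 0 were called in any of the 5 tests. *Tnfsf4*, which encodes OX40L, was selected as lower in WT(LPS + IL-10), with 4.18 and 4.0 against 4.93 and 5.74 in WT(LPS) (-1.25, limma, adjusted p = 0.221), and in miR-155-/-(LPS), with 4.43 and 4.03 against the same WT(LPS) arrays (-1.11, limma, adjusted p = 0.154). *Lta*, which encodes lymphotoxin alpha, was selected as higher in miR-155-/-(LPS), at low signal with 4.38 and 3.04 against 2.23 and 2.84 in WT(LPS) (1.17, limma, adjusted p = 0.289). With 1 array left out the *Lta* difference ranged from 0.54, without miR-155-/-(LPS) replicate 1, to 1.80, and those of *Tnfsf4* from -1.67 to -0.82 for IL-10 in WT and from -1.53 to -0.68 between genotypes, so that each of them fell inside the 2-fold limit in some fits.

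Of the other receptors, 1 of 23 was called for miR-155-/-(LPS) against WT(LPS), against 1.46% of all probe sets. It was *Cd40*, the costimulatory receptor of antigen-presenting cells, with 11.27 and 10.98 in miR-155-/-(LPS) against 9.22 and 9.54 in WT(LPS). The log2 fold change was 1.75 ± 0.21 (limma, adjusted p = 0.0153; the call held in 4 of 8 fits with 1 array left out), and its 3 probe sets gave 1.67 to 1.79. IL-10 lowered *Cd40* in the knockout, with 9.98 and 9.46 in miR-155-/-(LPS + IL-10), by -1.41 ± 0.18 (limma, adjusted p = 0.0129). In WT the difference was -0.10, where the WT(LPS + IL-10) arrays read 9.27 and 9.30 (limma, adjusted p = 0.901). The difference of the IL-10 effects was -1.31 ± 0.25 and was not called (limma, adjusted p = 0.253).

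Receptor-proximal signalling, a list of adaptors, kinases, ubiquitin ligases and inhibitors that act at the receptors or downstream of them, had 23 measured genes. Between the genotypes under LPS 3 were called higher and 0 lower, 22 of 23 differed in the positive direction and their median was 0.35. Of all 45014 probe sets, 428 were called higher and 231 lower, 23957 were positive and the median was 0.020. For IL-10 in the knockout 4 were called lower and 0 higher, 23 of 23 were negative and the median was -0.30, while of all probe sets 638 were called lower and 568 higher, 22083 were negative and the median was 0.0056. For IL-10 in WT 0 were called and the median was -0.11. The comparisons share the miR-155-/-(LPS) or the WT(LPS) arrays, so that they are not independent of each other.

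*Traf1*, an adaptor that NF-kappaB itself induces, was the most changed of them, with 9.29 and 8.91 in miR-155-/- cells with LPS + IL-10, 11.61 and 11.33 in miR-155-/- cells with LPS alone, 8.56 and 8.42 in WT cells with LPS + IL-10, and 8.97 and 9.53 in WT cells with LPS alone. The miR-155-/-(LPS) arrays were the only ones above 10. *Traf1* was higher by 2.22 ± 0.23 in the knockout under LPS (limma, adjusted p = 0.0109), where a second, dimmer probe set gave 1.36 and was not called (limma, adjusted p = 0.0602), and lower by -2.37 ± 0.20 with IL-10 in the knockout (limma, adjusted p = 0.00382). *Traf2*, which joins the receptors to ubiquitin ligases, differed by 0.91 (limma, adjusted p = 0.0403) and -0.81 (limma, adjusted p = 0.0263) in these comparisons. *Tnip1*, which with A20 limits NF-kappaB, differed by 0.97 (limma, adjusted p = 0.0444) and -0.79 (limma, adjusted p = 0.0391). *Birc2*, a ubiquitin ligase of this complex, was also called lower with IL-10 in the knockout, by -0.69 (limma, adjusted p = 0.0395). With 1 array left out, the *Traf1* calls held in 5 of 8 fits between genotypes (up to an adjusted p of 0.113) and in 7 of 8 for IL-10 in the knockout (up to 0.0561), while those of *Tnip1* held in 0 of 8 and those of *Traf2* in 0 and 2 of 8. Without WT donor 1 *Traf1* was still called between genotypes, and *Cd40*, *Traf2* and *Tnip1* were not (limma, adjusted p = 0.0917, 0.157 and 0.138).

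Of 12 death signalling genes, 0 were called between the genotypes under LPS, against 1.46% of all probe sets, and their median was 0.11. With IL-10 in the knockout 1 of the 12 was called higher and 1 lower, against 2.68% of all probe sets. *Ripk3*, the necroptosis kinase, was higher by 1.07 (limma, adjusted p = 0.0268). *Mlkl*, its substrate, was lower by -0.69 (limma, adjusted p = 0.0444), so that the pair moved in opposite directions. Of 6 shedding genes 1 was called between the genotypes under LPS, against 1.46% of all probe sets. It was *Rhbdf1*, a regulator of the TNF-shedding protease, with 4.47 and 4.63 in miR-155-/-(LPS) against 5.57 and 5.29 in WT(LPS) (-0.88, limma, adjusted p = 0.0467). Its mean over the 8 arrays was 4.92, which is low signal. The difference ranged from -1.0 to -0.76 with 1 array left out and was -0.74 without WT donor 1. The call did not hold with fewer arrays. *Birc2*, *Ripk3*, *Mlkl* and the receptor *Tnfrsf11a* (-0.87 with IL-10 in the knockout, limma, adjusted p = 0.0453) were named after their values had been seen and were not refitted with arrays left out.

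**Figure D5:**
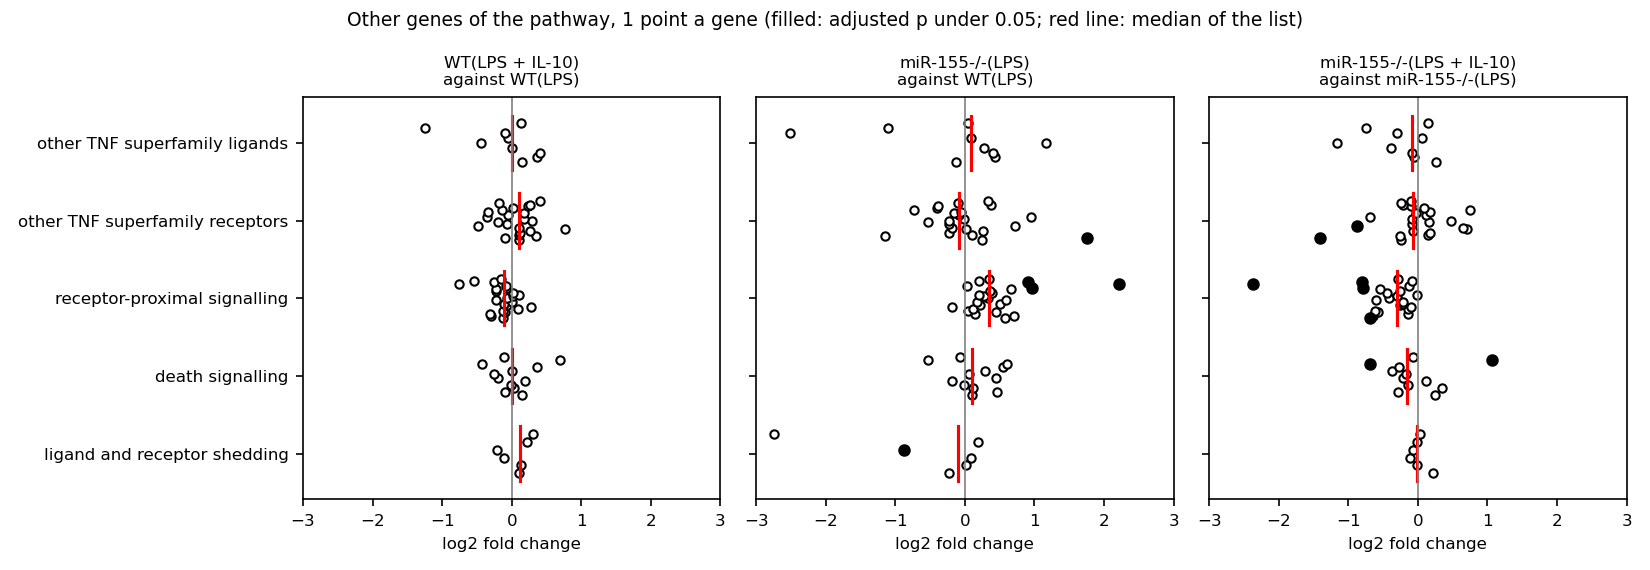
Log2 fold change (x axis) of each measured gene in 5 lists of pathway genes (y axis) in 3 comparisons; filled points have an adjusted p under 0.05 and red lines are list medians. The median of receptor-proximal signalling is 0.35 for miR-155-/-(LPS) against WT(LPS) and -0.30 for IL-10 in the knockout.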

How the data were processed

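RNA of the 8 BMDM arrays was amplified and biotin-labelled, and hybridised to Affymetrix mouse arrays. The authors deposited log2 values made with RMA in the affy package, that is after background correction and quantile normalisation, with 1 value per probe set. Which versions of affy, RMA and limma the authors ran was not given in the sources used here. All 8 columns were mapped to samples, and 0 columns belonged to no sample. The number of arrays limits the precision.

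Symbols came from the platform annotation: of 45101 probe sets, 34958 had 1 symbol, 932 several and 9211 none, and 0 needed an update through the RefSeq table (GRCm38.p6). After leaving out 64 controls and 23 probe sets of Y-linked genes or *Xist*, 45014 were tested, other X-linked genes included. Differences were fitted in R 4.3.3 with limma 3.58.1 to group means of the 8 arrays. The mouse donor entered as a random block (duplicateCorrelation, 0.240), and Benjamini-Hochberg adjustment covered every probe set tested. The labels give the donor through genotype and replicate number, since LPS and LPS + IL-10 arrays of 1 number came from 1 animal. Arrays of 1 donor deviated together from their group means, with r = 0.754 in WT and r = 0.230 in the knockout. The fit was also run on simulated data, with differences placed only on probe sets with a mean over 6. How well it recovers a difference in the dimmer members was therefore not tested. Motifs were searched on both strands of RefSeq windows, and Python 3.11.15 with matplotlib 3.10.9 drew the plots.

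All members were named. Other pathway genes were named where they were called, or selected, for IL-10 in WT or for miR-155-/-(LPS) against WT(LPS), and for each called member the 3 genes with the highest Pearson correlation. The members and lists were chosen with earlier results of these data known. The alternatives were no donor block, a fixed block, only the arrays compared, a limit of 6 on the mean log2 value, eBayes with trend and robust settings, array weights, median centring, a second quantile normalisation, averaging the probe sets of a gene, a 1.5-fold limit, each array left out in turn and WT donor 1 left out.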

Additional observations from a re-analysis of the deposited data

Results flagged for a closer look

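*Tnfrsf9* stood out because the difference between LPS + IL-10 and LPS had opposite signs in the genotypes, in every donor. IL-10 minus LPS was -0.82 and -0.26 in the knockout donors and 0.44 and 0.49 in the WT donors, and the difference of the effects was -1.0 (limma, unadjusted p = 0.0261, adjusted p = 0.435), so that it did not pass the correction over all probe sets. This held for its brightest probe set, whose signal was 5.36 or lower on all 8 arrays, while the other 2 gave a difference of the effects of 0.27 and -0.45 (limma, adjusted p = 0.628 and 0.523). With 1 array left out the difference ranged from -1.42 to -0.59. Groups of 2 arrays are too small for a test of single arrays that stand apart.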

How the results depend on the processing

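Every member that an alternative kept held its direction there for IL-10 in either genotype and for miR-155-/-(LPS) against WT(LPS). The count called for IL-10 in WT (1) was 0 with no replicate block, with a mean of at least 6, with array weights, without WT donor 1 and with any array left out (0 to 0), and 2 by the unadjusted rule. The count selected there (2) was 0 with a mean of at least 6, 1 with the mean over probe sets, 5 with a 1.5-fold limit and 1 to 2 with an array left out. For miR-155-/-(LPS) against WT(LPS), 2 were called, but 0 with only the arrays compared, 4 with an intensity trend, 1 with the mean over probe sets, 1 without WT donor 1 and 0 to 2 with an array left out. Selected were 3, but 1 with a mean of at least 6 and 2 to 3 with an array left out. For IL-10 in the knockout, 4 were called, but 6 with an intensity trend, 2 with no replicate block and 1 to 3 with an array left out. Selected were 4, but 1 with a mean of at least 6 and 3 to 4 with an array left out.

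For miR-155-/-(LPS + IL-10) against WT(LPS + IL-10), 0 were called, but 2 with an intensity trend and 3 by the unadjusted rule, and 0 to 0 with an array left out. Selected were 3, but 0 with a mean of at least 6 or the mean over probe sets, 5 with a 1.5-fold limit and 2 to 3 with an array left out. For the difference of the IL-10 effects, 0 were called, but 3 by the unadjusted rule. Selected were 3, but 1 with no replicate block, with the mean over probe sets or without WT donor 1, 0 with a mean of at least 6 and 0 to 2 with an array left out. The mean limit removed 4 members (*Tnfsf10*, *Tnfsf13b*, *Tnfsf14* and *Tnfrsf9*), and other causes were not tested. With that limit the members called for miR-155-/-(LPS) against WT(LPS) were *Tnf* and *Tnfrsf1b*, while 1523 of all 15434 probe sets kept were called. For IL-10 in the knockout it added *Tnfrsf1b* and *Fas* to the call of *Tnf*, while 3183 of the 15434 were called. With an intensity trend, 1570 and 2422 of all 45014 probe sets were called in these comparisons. For miR-155-/-(LPS + IL-10) against WT(LPS + IL-10) the trend gave 295. More probe sets were thus called in general under these settings than in the main fit.

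Signs changed for these differences. The difference of the IL-10 effects was -0.38 for *Tnfrsf1b* with the mean over probe sets, and with an array left out it ranged from -0.12 to 0.22 for *Tnfrsf1b*, -0.28 to 0.26 for *Tnfsf14*, -0.031 to 0.27 for *Tnfrsf1a* and -0.10 to 0.0059 for *Fas*. *Fas* in miR-155-/-(LPS + IL-10) against WT(LPS + IL-10) ranged from -0.036 to 0.065. With the donor as a fixed replicate block, *Tnfsf14* had an adjusted p of 0.0112 from limma for IL-10 in WT, and no member's call changed. No member's call changed after median centring or a second quantile normalisation. For miR-155-/-(LPS) against WT(LPS) and for IL-10 in the knockout, the adjusted p of *Tnf*, *Tnfsf10* and *Tnfsf13b* with an array left out was highest without miR-155-/-(LPS) replicate 1. A fixed donor block cannot be estimated between genotypes. With only the 4 arrays compared, the donor was a fixed term within a genotype and left out between genotypes. Without WT donor 1 the correlation of all arrays was used, and the remaining WT arrays were assumed to vary like the other groups. With 2 arrays a group, a call lost when an array is left out also reflects the smaller number of arrays.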
